A study of Mus musculus with 6 samples.

Results

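The genes described here are 39 genes of glycolysis and of the transcriptional response to low oxygen, followed library by library in cultured mouse granulosa cells. They were chosen by name: glucose and lactate transporters, 16 glycolytic enzymes, regulators of glycolysis, and widely used targets and regulators of hypoxia-inducible factor (HIF). All 39 were found among the 27151 gene IDs of the deposited expression table, and 35 of them passed a mean of at least 1 FPKM over the 6 libraries (FPKM is fragments per kilobase of exon, scaled to library size). The 35 were tested together with the other genes above that level, 12181 in all, while Slc2a3, Aldoc, Car9 and Ankrd37 fell below it. Egln3 passed only through its value in 1 library, control replicate 2.

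Granulosa cells are the somatic cells that surround the oocyte. According to the labels, a culture of 24 h was followed by serum starvation for 12 h and by 24 h with or without GSK4112, with fresh medium every 12 h. GSK4112 activates NR1D1, also called REV-ERBα, a repressor of the circadian clock that senses heme. Control and GSK4112 had 3 libraries each, and the same culture is described for all 6. No genotype difference is given, and all 6 libraries come from serum-starved cells. The series' design text speaks of treatment in vivo, and the libraries are described here as the protocol gives them. The labels are silent on whether separate cultures or animals were used, so the p-values reflect only how much these libraries varied, which may be technical.

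Glycolysis converts glucose to pyruvate in the cytosol, first spending and then regaining ATP. When pyruvate is reduced to lactate, lactate dehydrogenase restores the NAD+ that the pathway consumes, and monocarboxylate transporters carry the lactate out of the cell. HIF is a dimer of an oxygen-labile alpha subunit (from Hif1a or Epas1) and a stable partner (Arnt). With oxygen present, prolyl hydroxylases of the EGLN family mark the alpha subunit for degradation, so HIF activity is set largely at the protein level. HIF binds a short RCGTG core and activates glucose transporters, most glycolytic enzymes, pyruvate dehydrogenase kinase, mitophagy receptors, VEGF and its own prolyl hydroxylases. In the follicle, granulosa cells are known for making lactate and pyruvate, which the oocyte uses as fuel.

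Depth was even, between 16559256 and 18158274 fragments per library as implied by the steps of the FPKM values, and a gene with 1 kb of exons gained 0.0551 to 0.0604 FPKM per fragment. Of 12 granulosa markers, 10 passed the filter, with summed levels of 2692 to 3026 FPKM in control and 1950 to 2768 FPKM with GSK4112, whereas Amh and Cyp19a1 lay below it in every library (at most 0.66 and 0.165 FPKM). The 2 replicate 1 libraries stood apart from the rest. Their 18 mitosis genes summed to 276 and 210 FPKM, against 36.1 to 74.2 FPKM in the other 4. Their theca and stroma markers summed to 271 and 146 FPKM, against 55.5 to 88.2 FPKM. Their 8 leukocyte markers, of which 2 passed the filter, summed to 41.4 and 38.5 FPKM, against 7.46 to 19.3 FPKM. None of the 7 endothelial and none of the 7 measured oocyte markers reached the filter. In bulk RNA, fewer cells of a type and less RNA per cell cannot be told apart.

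Control replicate 2 carried far more RNA of these genes than any other library. The 39 genes summed to 5167 FPKM there, against 1517 and 1519 FPKM in control replicates 1 and 3 and 1405, 1208 and 1291 FPKM in GSK4112 replicates 1, 2 and 3. This was 3.4 times the mean of the other 2 controls, and the 16 enzymes (3.43 times) and the 23 other genes (3.29 times) took part to a similar degree. The highest of the 6 values lay in control replicate 2 for 34 of the 39 genes, 31 of the 35 tested (88.6%), whereas 10.6% of all genes tested were highest there. Pfkm, Pfkfb4, Adm, Car9 and Hif1a were the 5 exceptions. On the log2(FPKM + 1) scale, 27 of the 39 genes exceeded the mean of the other 2 controls by at least 1 unit in this library, against 0.936% of all genes tested. The median departure was 1.36 over the 39 genes and -0.03 over all genes tested. No test is attached to these figures, because 1 library has no replicate, and the genes were listed with the standing of this library known.

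**Figure D1:**
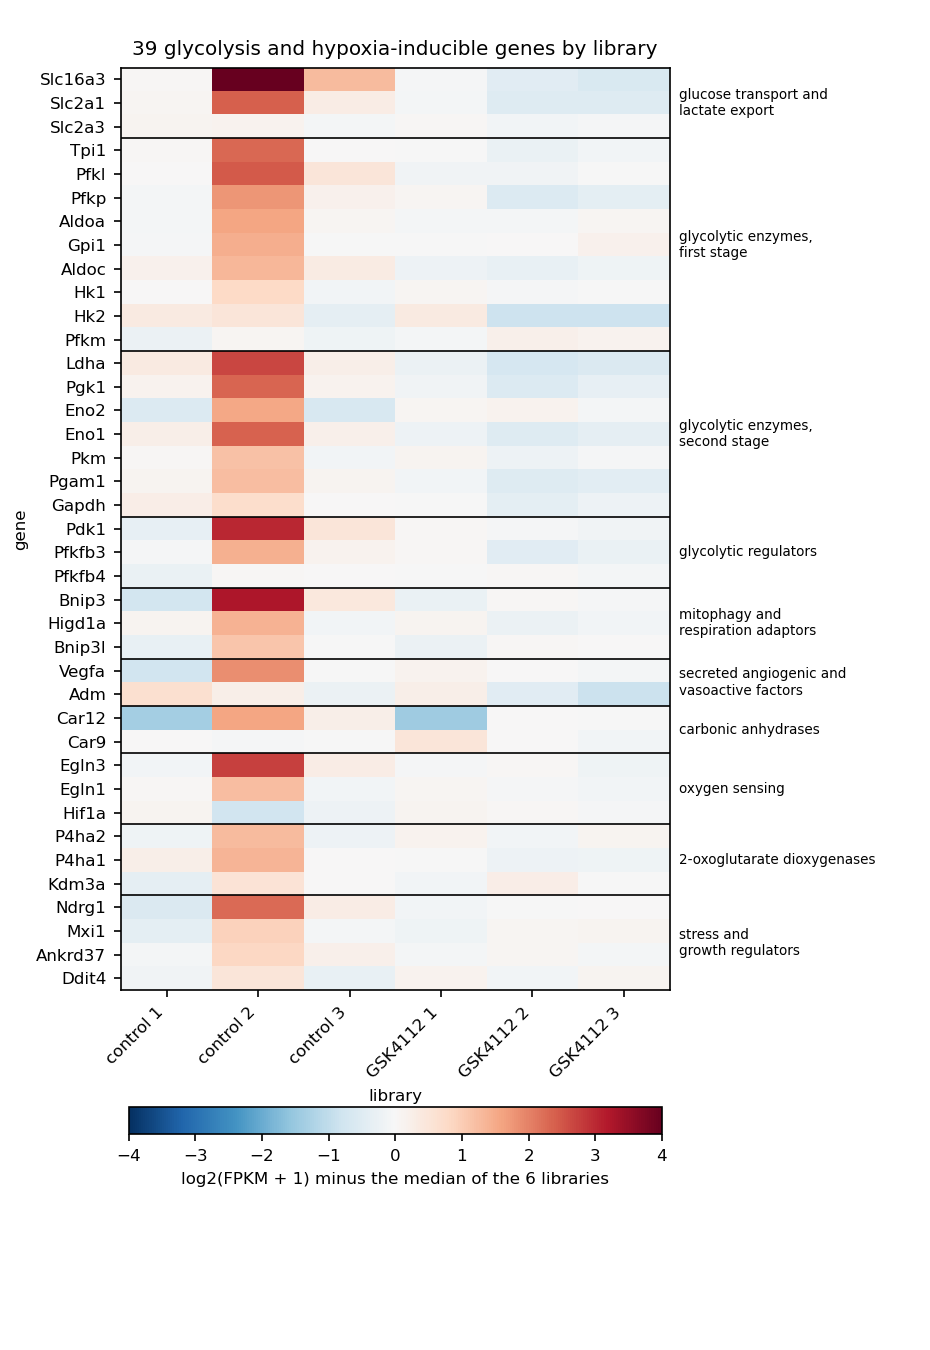
Log2(FPKM + 1) of each of the 39 genes in the 6 libraries, relative to that gene's median over the 6 libraries (colour, log2 units; genes in rows grouped by role, libraries in columns). The control 2 column holds the highest value for 34 of the 39 genes, and Hif1a is low there.

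Over the list as a whole the other libraries lay close together, although single genes differed between them. Measured against the other members of their own group, the median over the 39 genes was 0.14, -0.10 and -0.05 in GSK4112 replicates 1, 2 and 3. In control replicates 1 and 3 it was -0.76 and -0.66, since control replicate 2 is part of what they were measured against. Depth in control replicate 2 (17260442 fragments) lay within the range of the others, and none of the 18 mitosis genes or 10 theca and stroma markers was highest there. With 67.2 FPKM for mitosis genes it was close to control replicate 3 (74.2 FPKM). The part of depth and of these cell-state markers in the departure was not tested.

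Lactate export showed the widest gap of all genes tested between control replicate 2 and the next highest library. Slc16a3, the monocarboxylate transporter MCT4 that exports lactate (chr11:120948480-120960868 in GRCm38), measured 3.51, 120.4 and 9.52 FPKM in control replicates 1, 2 and 3 and 3.27, 2.24 and 1.87 FPKM in GSK4112 replicates 1, 2 and 3. Its value in control replicate 2 was 18.5 times the mean of the other controls, and 11048 fragments stood behind it, against 173 to 842 elsewhere. Slc2a1, the glucose transporter GLUT1, measured 10.1, 54.7 and 12.0 FPKM in control and 9.15, 6.49 and 6.47 FPKM with GSK4112. For both genes every control value lay above every GSK4112 value. Slc2a3, another glucose transporter, stayed between 0.32 and 0.58 FPKM.

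Among the 9 genes of the first stage of glycolysis, from glucose to triose phosphate, 8 were highest in control replicate 2. Pfkl, the liver-type phosphofructokinase, measured 17.5, 99.5 and 24.6 FPKM in control and 15.7, 15.8 and 17.4 FPKM with GSK4112. Tpi1, triosephosphate isomerase, measured 93.0, 450.7 and 91.2 FPKM in control and 89.6, 74.7 and 83.2 FPKM with GSK4112. These are rises of 4.73 and 4.89 times over the mean of the other controls. Aldoa, the main aldolase, reached 549 FPKM there against 171 to 193 FPKM elsewhere, Gpi1, glucose-6-phosphate isomerase, 95.2 against 33.3 to 38.4 FPKM, and Pfkp, the platelet-type phosphofructokinase, 25.1 against 4.28 to 7.75 FPKM. Hexokinases moved less: Hk1 measured 19.4 FPKM against 9.90 to 11.4 FPKM, and Hk2 22.8 FPKM against 8.42 to 20.6 FPKM. Aldoc measured 0.78, 2.95 and 0.98 FPKM in control and 0.38, 0.30 and 0.41 FPKM with GSK4112, below the filter but without overlap. Pfkm, the muscle-type phosphofructokinase, was the exception, with 19.9 FPKM inside a range of 15.7 to 22.0 FPKM.

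All 7 genes of the second stage, from triose phosphate to lactate, were highest in control replicate 2. Ldha, the subunit of lactate dehydrogenase that favours lactate formation (chr7:46841475-46855627), measured 151, 750.2 and 138 FPKM in control and 100.4, 73.4 and 79.4 FPKM with GSK4112. Pgk1, phosphoglycerate kinase and the first ATP-yielding step, measured 159, 728 and 159 FPKM in control and 128, 97.7 and 113 FPKM with GSK4112. Eno1, the main enolase, measured 105, 465 and 104 FPKM and then 78.2, 62.9 and 70.1 FPKM. The 3 genes were 5.18, 4.57 and 4.44 times as high in control replicate 2 as in the mean of the other controls, and in each the 3 GSK4112 libraries lay below all controls. Pgam1, phosphoglycerate mutase, measured 219, 475 and 216 FPKM in control and 189, 141 and 149.6 FPKM with GSK4112. Gapdh, glyceraldehyde-3-phosphate dehydrogenase, measured 11.7, 16.2 and 9.80 FPKM and then 9.50, 7.2 and 8.34 FPKM. Pkm, pyruvate kinase, reached 489 FPKM against 187 to 233 FPKM. Eno2, the neuronal enolase, measured 2.33, 13.3 and 2.15 FPKM in control and 4.15, 4.40 and 3.61 FPKM with GSK4112, so that its GSK4112 values lay above 2 of the 3 controls.

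Several of these enzymes have near-identical copies in the genome, and their levels are uncertain because the counting of shared reads is not stated. At 95% identity over at least 100 bases, 88.0% of the Gapdh transcript matched other genes. The Gapdh pseudogene Gm13394 was listed at 607, 1329 and 509 FPKM in control and 516, 396 and 461 FPKM with GSK4112, far above Gapdh itself. For Eno1 85.6% matched, and its copy Eno1b followed it with 93.9, 425 and 89.1 FPKM in control and 65.9, 58.4 and 67.8 FPKM with GSK4112. The share matched was 94.2% for Bnip3, 68.8% for Pgk1, 65.5% for Pkm, 55.3% for Gpi1 and 55.0% for Ldha. Slc16a3, Pdk1, Egln3, Pfkl, Vegfa and Car12 had no such match, so the pattern of control replicate 2 is also present in genes without copies. Exons of Ankrd37, Higd1a and Bnip3 overlap a gene on the opposite strand over 22.7%, 22.5% and 22.3% of their bases, and reads of such pairs cannot be told apart without a stated strand setting.

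**Figure D2:**
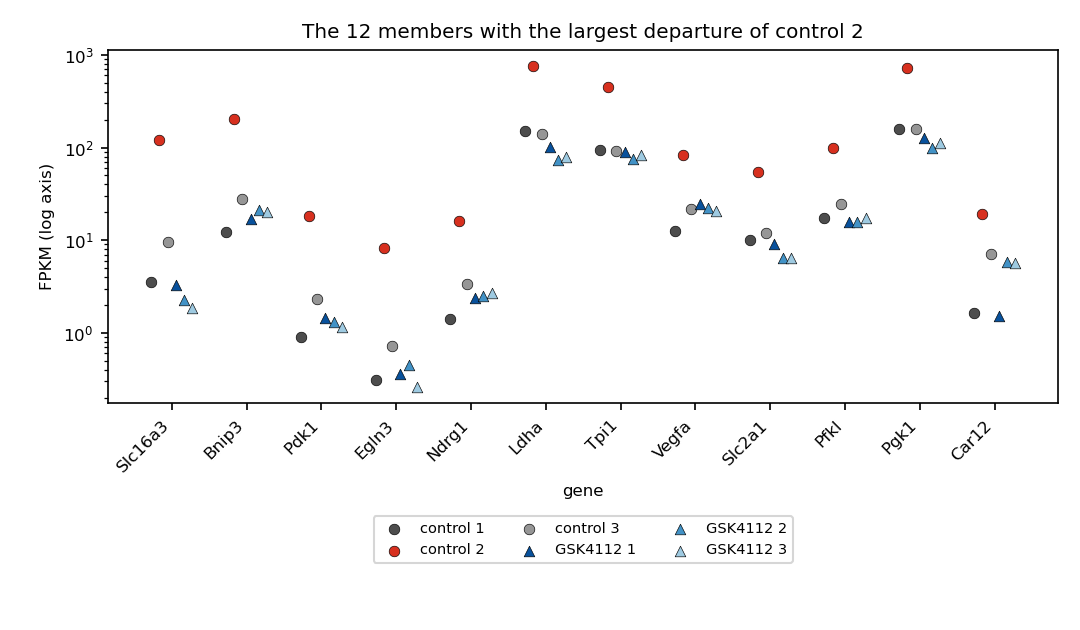
FPKM (log axis) of the 12 genes with the largest departure of control replicate 2, with a point per library (circles, control; triangles, GSK4112). Control 2 lies above the other 5 libraries in all 12 genes, while for Slc16a3, Ldha, Tpi1, Slc2a1, Pfkl and Pgk1 the GSK4112 points also lie below controls 1 and 3.

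Genes that divert pyruvate and mitochondria departed as strongly as the enzymes. Pdk1, the pyruvate dehydrogenase kinase that holds pyruvate out of the mitochondrial cycle (chr2:71873224-71903858), measured 0.89, 18.4 and 2.34 FPKM in control and 1.46, 1.30 and 1.15 FPKM with GSK4112. Bnip3, a mitophagy receptor of the outer mitochondrial membrane (chr7:138890836-138909519), measured 12.2, 205 and 28.1 FPKM in control and 17.1, 21.3 and 20.1 FPKM with GSK4112. Both were over 10 times as high in control replicate 2 as in the mean of the other controls (11.4 and 10.2 times), and in both the GSK4112 values lay between control replicates 1 and 3. The related receptor Bnip3l reached 96.3 FPKM against 36.3 to 46.3 FPKM, and Higd1a, a small respiratory-chain protein, 23.9 against 7.07 to 9.17 FPKM. Pfkfb3, a kinase that makes the allosteric activator of phosphofructokinase, reached 14.9 against 3.37 to 5.61 FPKM. Its paralog Pfkfb4 did not stand out, at 2.39 FPKM within a range of 1.77 to 2.40 FPKM.

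Oxygen sensing itself showed opposite directions. Egln3, a prolyl hydroxylase that is itself a HIF target (chr12:54178981-54203860), measured 0.31, 8.34 and 0.72 FPKM in control and 0.36, 0.45 and 0.26 FPKM with GSK4112. That is 383 fragments in control replicate 2 against 12 to 32 elsewhere, 16.1 times the mean of the other controls in FPKM. Egln1, the main oxygen sensor of the family, reached 68.5 against 26.1 to 29.9 FPKM. Hif1a mRNA, in contrast, was lowest in control replicate 2 (chr12:73901375-73947530). It measured 54.6, 28.8 and 43.0 FPKM in control and 54.5, 52.0 and 48.2 FPKM with GSK4112. It was the only one of the 39 genes with its lowest value in that library, where 21.1% of all genes tested had theirs, and its level was 0.59 times the mean of the other controls.

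Secreted factors, pH regulators and stress genes were mixed. Vegfa, the main angiogenic growth factor, measured 12.4, 83.2 and 21.8 FPKM in control and 24.7, 22.3 and 20.7 FPKM with GSK4112. Ndrg1, a stress-induced differentiation gene, measured 1.39, 16.2 and 3.40 FPKM and then 2.35, 2.51 and 2.66 FPKM. Car12, a membrane-bound carbonic anhydrase, measured 1.62, 19.4 and 7.03 FPKM in control and 1.53, 5.80 and 5.70 FPKM with GSK4112, low in both replicate 1 libraries. Adm, the vasodilator peptide adrenomedullin, did not share the pattern: it measured 8.16, 5.94 and 4.05 FPKM in control and 6.03, 3.32 and 2.27 FPKM with GSK4112, highest in replicate 1 of each group. Car9, another membrane-bound carbonic anhydrase, stayed between 0.40 and 1.10 FPKM. P4ha1, a collagen prolyl hydroxylase, measured 36.9, 80.8 and 31.5 FPKM and then 30.9, 27.0 and 27.7 FPKM. Its paralog P4ha2 reached 13.8 FPKM against 4.30 to 5.76 FPKM, Mxi1, a MYC antagonist, 24.8 against 9.43 to 13.7 FPKM, and Ankrd37 1.36 against 0.25 to 0.55 FPKM. The histone demethylase Kdm3a (28.7 against 14.8 to 23.4 FPKM) and the mTORC1 inhibitor Ddit4 (28.6 against 16.3 to 22.0 FPKM) departed less.

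Because so many of the departing genes are textbook HIF targets, the sequence before their start sites is shown for 5 that carry a core there, for Egln3, which departed as strongly without one in the stretch shown, and for Hif1a, which was lowest in control replicate 2. Not every departing gene carries a core: Tpi1, Car12, Eno2 and Gpi1 have none in the 250 bases before the start. The same holds for 1 of the Vegfa windows and 1 of the Pdk1 windows. The windows come from RefSeq on GRCm38.p6 and run 5′ to 3′ on the gene's strand up to the base before the start site. Capitals mark each ACGTG or GCGTG core on either strand, so CACGT and CACGC are cores on the reverse strand, and CACGTG holds ACGTG on both strands.
Slc16a3, chr11:120948967-120949066, plus strand: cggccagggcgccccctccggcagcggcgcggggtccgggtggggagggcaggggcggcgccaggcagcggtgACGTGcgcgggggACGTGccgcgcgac
Bnip3, chr7:138909507-138909656, minus strand: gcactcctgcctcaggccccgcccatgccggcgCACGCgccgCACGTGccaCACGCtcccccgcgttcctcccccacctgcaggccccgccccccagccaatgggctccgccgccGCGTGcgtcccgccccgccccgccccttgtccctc
Pdk1, chr2:71873124-71873223, plus strand: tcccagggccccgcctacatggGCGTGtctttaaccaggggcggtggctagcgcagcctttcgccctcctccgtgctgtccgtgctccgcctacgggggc
Ldha, chr7:46845744-46845803, plus strand: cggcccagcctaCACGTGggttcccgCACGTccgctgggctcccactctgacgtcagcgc
Pgk1, chrX:106186950-106187099, plus strand: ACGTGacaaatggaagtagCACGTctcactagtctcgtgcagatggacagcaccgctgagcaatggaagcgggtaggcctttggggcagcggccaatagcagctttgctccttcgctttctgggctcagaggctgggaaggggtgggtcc
Egln3, chr12:54203875-54204024, minus strand: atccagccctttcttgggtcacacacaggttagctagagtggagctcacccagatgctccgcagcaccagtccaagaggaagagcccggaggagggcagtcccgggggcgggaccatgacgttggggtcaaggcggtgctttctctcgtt
Hif1a, chr12:73907717-73907866, plus strand: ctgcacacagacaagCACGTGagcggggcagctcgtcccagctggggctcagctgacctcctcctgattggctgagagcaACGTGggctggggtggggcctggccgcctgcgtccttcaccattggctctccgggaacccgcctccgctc

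RefSeq windows of 250 bases before to 50 after the start were matched by symbol for 36 of the 39 genes, giving 54 windows, while Bnip3l, Ndrg1 and Slc2a3 had none. ACGTG, searched on both strands, was present in 53.7% of those windows, against 26.1% of the 11212 windows of genes tested and 19.6% of all 32851 windows. Many of the 39 were chosen as HIF targets, so this contrast describes the choice of genes and not these libraries. GCGTG was present in 51.9% of the windows, 52.0% of those of genes tested and 32.4% of all. The E-box CACGTG, which overlaps ACGTG, was found in 9.26%, 10.4% and 7.15%, and AGGTCA, the core letters read by NR1D1, in 14.8%, 12.2% and 16.3%. Within the 39 genes ACGTG was not more frequent where the departure was wide. It stood in 53.1% of the windows of the 23 matched genes that lay at least 1 log2 unit above all other libraries in control replicate 2, and in 54.5% of those of the other 13. Counted by gene these were 65.2% and 76.9%, and either core was present in 82.6% and 100% of the genes. In the 12 matched genes outside the 39 with as wide a gap, ACGTG stood in 7 of 15 windows (46.7%). Over all tested genes outside the 39 it stood in 25.9%. Outside the 39, 33 genes had such a gap, and 5 of these were in a separate list of other hypoxia-inducible targets. Egln3 has no core in the 150 bases shown and its ACGTG lies at position -229, whereas Hif1a, the gene that was lowest there, carries 3 matches. A match of letters is a description of the sequence and not a binding site.

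Of the genes that lay far above every other library in control replicate 2, many were among the 39. The 39 were listed with the standing of this library known, so the counts that follow lend it no support. Only 58 genes, 0.476% of those tested, lay there at least 1 log2 unit above the highest of the other 5 libraries, and 25 of the 58 (43.1%) were among the 39, which is 71.4% of the 35 tested. Of the 10 genes with the widest gap 6 were members, of the top 50 22, and Slc16a3 came first. Egln3, 1 of the 6, passed the filter only through control replicate 2. A further 5 of the 58 were in a separate list of other hypoxia-inducible targets and 28 in neither. Several of the 28 are near-identical copies of members: Eno1b, Gm4735, Gm5855, Tpi-rs11, Pgk1-rs7, Gm16439, Gm13394, Gm5559 and Gm7336. They may share reads with those members. The widest gaps outside the 39 included Ak4, a mitochondrial adenylate kinase, with 1.64, 57.0 and 5.78 FPKM in control and 1.45, 1.64 and 1.41 FPKM with GSK4112. Pgm1, phosphoglucomutase, measured 18.8, 84.8 and 22.3 FPKM and then 19.4, 17.8 and 20.4 FPKM. The rest of the 12 widest among genes with a mean of at least 5 FPKM were Prelid2, Eno1b, Gm4735, Tpi-rs11, Rcor2, Fam162a, Rgs11, Gys1, Galk1 and Plekha2, of which Eno1b, Gm4735 and Tpi-rs11 are copies of enzymes above. Genes of lower mean are left out of that ranking and some had wider gaps, such as Cox4i2, a subunit isoform of cytochrome c oxidase, with a gap of 3.01 log2 units (chosen after its value was seen). In the opposite direction, at the same minimum mean, the 6 genes farthest below all other libraries were Snord19, Cck, Gm22918, Gm48496, Csf1 and Gm35533. Over all genes tested, 0.63% lay at least 1 log2 unit below the mean of the other controls in control replicate 2, and 0.94% above.

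**Figure D3:**
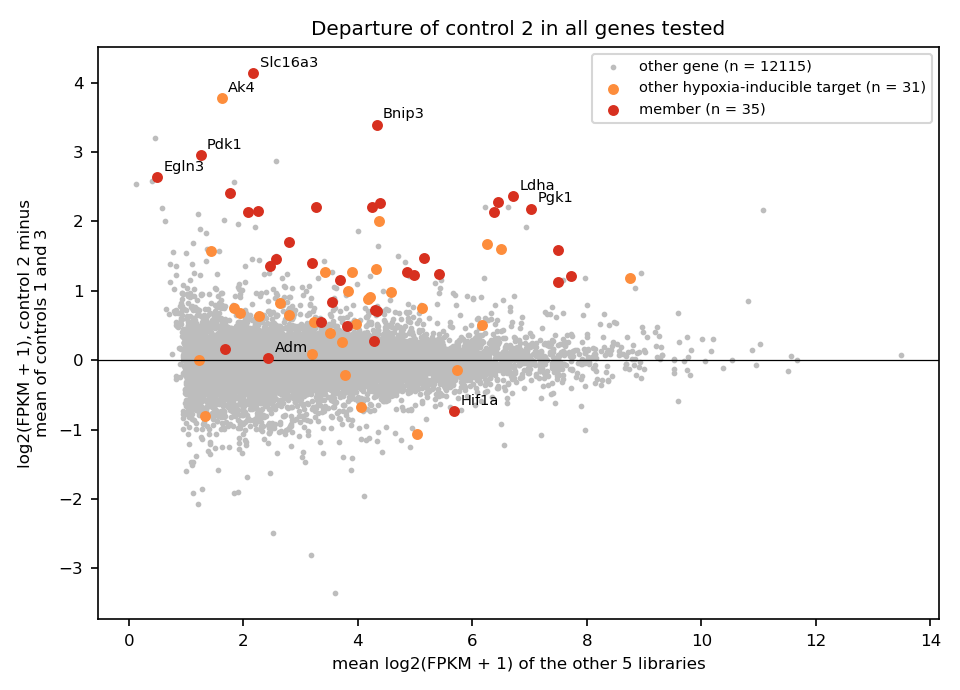
Departure of control replicate 2 (log2(FPKM + 1) in that library minus the mean of control replicates 1 and 3, vertical axis) against the mean level in the other 5 libraries (horizontal axis) for the 12181 genes tested, with the 35 glycolysis and hypoxia-inducible genes among them in red and 31 other hypoxia-inducible targets in orange. Most genes lie near 0, whereas 26 of the 35 red points lie at 1 or above, and Hif1a lies at -0.73.

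Neighbouring pathways showed less of it. Of 36 other hypoxia-inducible targets in the table, 22 were highest in control replicate 2 and 10 departed by at least 1 log2 unit, with a median departure of 0.65. Of 16 genes of the tricarboxylic acid cycle, 5 were highest there and none departed by 1 unit (median 0.01), and of 7 pentose phosphate genes 2 were highest and none departed by 1 unit (median 0.25, with Pgd at 42.7 FPKM against 25.1 and 31.7 FPKM in the other controls). Among 14 other HIF pathway regulators 2 were highest there and none departed by 1 unit. Epas1, the other oxygen-labile alpha subunit, measured 6.37, 2.31 and 3.43 FPKM in control and 3.12, 1.68 and 1.60 FPKM with GSK4112. Of 28 other glycolytic isoforms and pyruvate genes 4 were highest there and 1 departed by at least 1 unit.

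The composition of paralog families therefore differed in this library. Slc16a3 made up 92.6% of the summed FPKM of Slc16a1 and Slc16a3 in control replicate 2, against 24.7% and 52.4% in control replicates 1 and 3 and 22.7 to 29.1% with GSK4112. Ldhb, the heart-type lactate dehydrogenase subunit, fell to 6.8% of the Ldha and Ldhb sum, against 29.3% and 24.3% in the other controls, although its own level of 54.7 FPKM lay between theirs (62.8 and 44.5 FPKM). With GSK4112 its share was 33.4, 43.7 and 44.0%, above all 3 controls, while its own level lay between 50.3 and 62.3 FPKM. Pdk1 went from 1.86% and 5.11% of the 4 pyruvate dehydrogenase kinases to 26.3%, Egln3 from 0.57% and 1.49% of the 3 prolyl hydroxylases to 8.55%, and Bnip3 from 25.1% and 38.9% of the Bnip3 and Bnip3l sum to 68.1%. Pfkm fell from 39.8% and 34.1% of the phosphofructokinases to 13.8% as Pfkl took 68.9%. Eno2 held 2.02 to 2.78% of the Eno1 and Eno2 sum in the 3 controls and 4.90 to 6.54% with GSK4112.

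**Figure D4:**
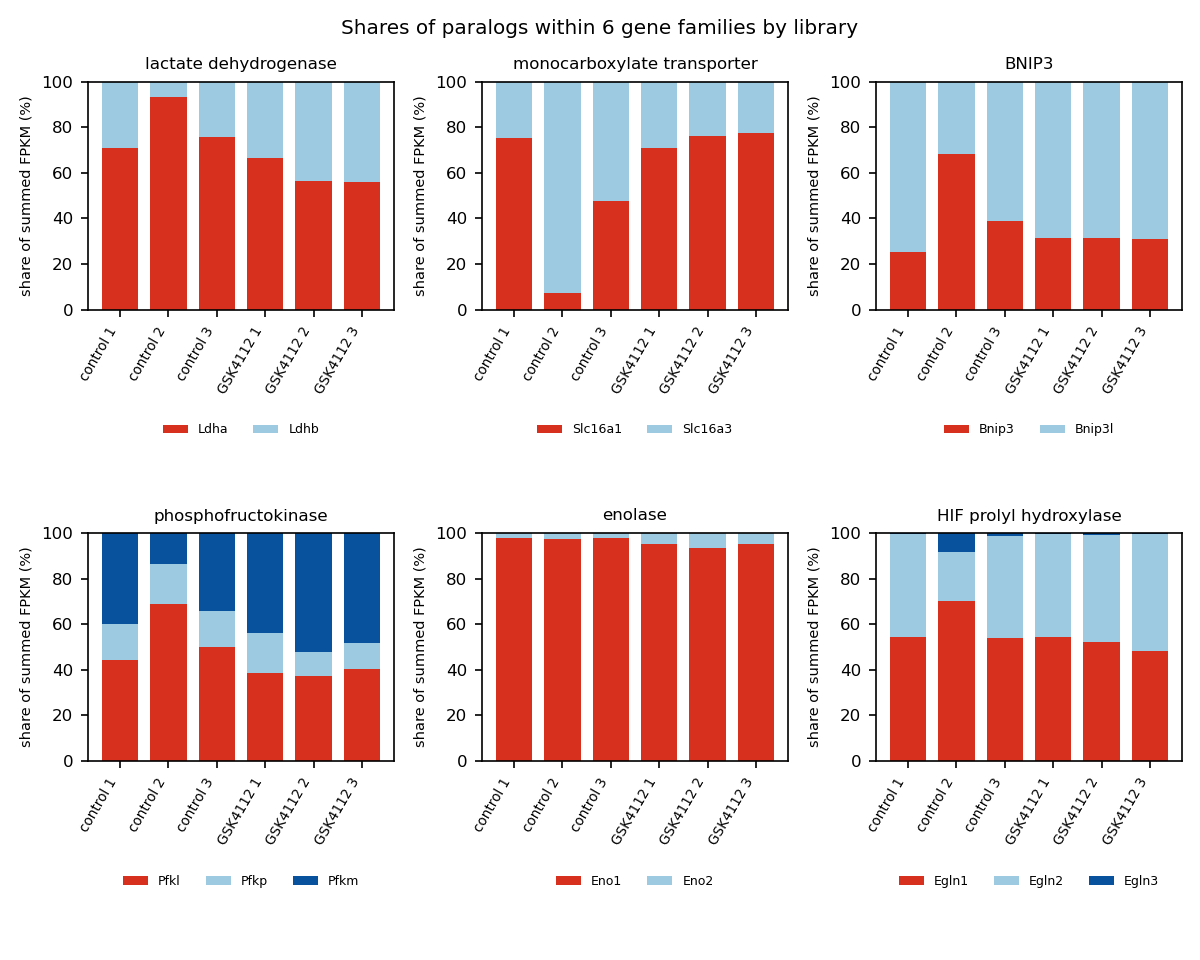
Share of each paralog in the summed FPKM of its family (%, bars adding to 100) in the 6 libraries, for 6 families. Control 2 shows the largest share of Ldha, Slc16a3, Bnip3, Pfkl and Egln3, and the GSK4112 libraries show a larger share of Ldhb and Eno2 than the controls.

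Control replicates 1 and 3 also differed from each other in part of the list. Control replicate 3 was above control replicate 1 in 20 of the 39 genes, close to the 47.2% of all genes tested, but the genes fell into separate groups. Of the 16 enzymes 6 were higher in control replicate 3, and none of the 7 of the second stage. Outside the enzymes 14 of 23 were higher, and among them were the genes that departed most in control replicate 2. Car12 was 4.33 times as high in control replicate 3 as in control replicate 1, Slc16a3 2.71, Pdk1 2.62, Ndrg1 2.44, Egln3 2.33, Bnip3 2.31 and Vegfa 1.76 times. Ldha (138 against 151 FPKM), Pgk1 (159 in both) and Tpi1 (91.2 against 93.0 FPKM) did not show this step. Control replicate 1 is also the library with the highest sums of mitosis genes, stromal markers and leukocyte markers, and the part of that difference was not tested.

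GSK4112 against control gave no called change among these genes in the comparison of all 6 libraries. With limma (Benjamini-Hochberg adjusted p under 0.05 over all genes tested) 0 of 35 were called higher and 0 lower, against 0.41% of all genes tested called higher and 0.624% called lower. At an unadjusted p under 0.05 there were 3, Ldha, Pgam1 and Gapdh, all lower, where 16.9% of all genes tested reached that level. Limma-voom on the recovered fragments also called none of the 35, while calling 75 genes higher and 96 lower in the whole table. It put 4 of the 35 at that unadjusted level, against 17.2% of all genes. The lowest adjusted p was 0.236 (limma), for Gapdh, and an exact permutation test of 3 against 3 libraries cannot go below 0.1. The fitted differences were nevertheless mostly negative: 34 of 39 were below 0, with a median of -0.56 on the log2(FPKM + 1) scale, while the median over all genes tested was 0.05 and 39.1% were below 0. This scale understates the change of low genes.

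That median depended on control replicate 2. Without this library it was -0.07, and 22 of 39 genes were below 0, against 41.4% of all genes tested and a median over all genes of 0.05. Limma then called 0 of 34 genes in either direction, but it called only 0.0164% of all genes higher and 0.0492% lower, and 8 of the 34 reached an unadjusted p under 0.05 (6 lower and 2 higher), where 14.1% of all genes tested did. Differences of Bnip3, Pdk1, Egln3, Ndrg1 and Car12 were carried by that library. Bnip3 went from -1.07 ± 0.92 (SE) with all 6 libraries to 0.059 without it, Ndrg1 from -0.69 to 0.11, Car12 from -0.63 to 0.086 and Vegfa from -0.33 to 0.42. Pdk1 went from -1.11 to -0.13, and Egln3 dropped below the filter. Hif1a, lowest in control replicate 2, went from 0.33 ± 0.22 to 0.09 ± 0.13. All of these adjusted p-values were 0.468 or above by limma.

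**Figure D5:**
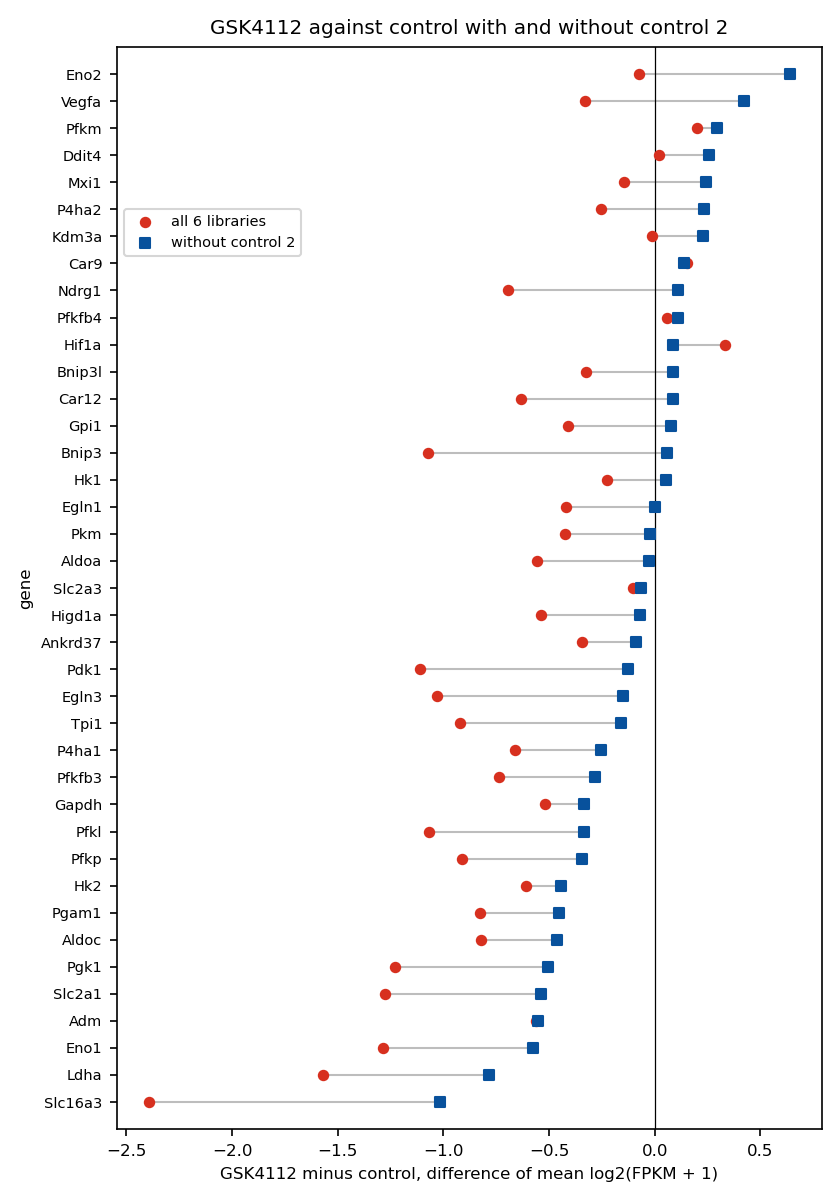
Log2(FPKM + 1) difference, GSK4112 minus control, of each of the 39 genes with all 6 libraries and without control replicate 2 (horizontal axis, log2 units; genes in rows). The median moves from -0.56 to -0.07, and Ldha, Slc16a3, Eno1, Slc2a1 and Pgk1 stay at -0.50 or below without the library, as does Adm at -0.55.

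In a smaller group of genes the GSK4112 values lay below the controls with and without that library. In 11 of the 39 genes, 10 of the 35 tested (28.6%), every GSK4112 value lay below every control value with all 6 libraries, against 7.9% of all genes tested. They are Slc16a3, Slc2a1, Pfkl, Aldoc, Tpi1, Gapdh, Pgk1, Pgam1, Eno1, Ldha and P4ha1, so 8 are glycolytic enzymes and 5 of these belong to the 7 of the second stage. None lay wholly above the controls, against 15.7% of all genes. Control replicate 2 was highest in 34 of the 39, and a gene highest in a control cannot lie wholly above the controls. Without control replicate 2 these same 11 genes did not overlap (11.4% of all genes tested). That library was highest in each, so leaving it out could not change this. It was highest in 88.6% of the 35 tested but in 10.6% of all genes tested. The shares of 28.6% and 7.9% are therefore not like for like. Some margins were narrow, as in Pfkl (17.38 against 17.47 FPKM), Tpi1 (89.6 against 91.17 FPKM) and Slc16a3 (3.27 against 3.51 FPKM). Others were wider, as in Ldha (100.4 against 138.5 FPKM). A further 5, Eno2, Gpi1, P4ha2, Ddit4 and Pfkm, lay wholly above the 2 remaining controls (20.1% of all genes tested).

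Lactate formation and export gave the largest of these differences. Ldha was lower by -1.57 ± 0.62 (SE, limma adjusted p = 0.275) with all libraries and by -0.78 ± 0.16 (limma adjusted p = 0.152) without control replicate 2. Slc16a3 differed by -2.39 ± 1.11 (limma adjusted p = 0.341) and -1.01 ± 0.38 (limma adjusted p = 0.334), Eno1 by -1.29 ± 0.56 and -0.57 ± 0.12, and Slc2a1 by -1.28 ± 0.59 and -0.54 ± 0.17. For Pgk1 the values were -1.23 ± 0.58 and -0.50 ± 0.14, and for Pgam1 -0.83 ± 0.32 and -0.45 ± 0.15. The differences of Pfkl, Tpi1, P4ha1 and Gapdh shrank to between -0.33 and -0.16. Eno2 turned from -0.07 ± 0.56 to 0.64 ± 0.13 (limma adjusted p = 0.152), with all 3 GSK4112 values above control replicates 1 and 3. None of these passed the threshold.

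The replicate number as a block changed the call for 2 genes. With all 6 libraries and the block, Adm was called lower (-0.56, limma adjusted p = 0.0325, against 0.431 without the block), lower in each of the 3 same-numbered pairs. The block called 3.07% of all genes tested higher and 3.82% lower, and 1 of the 35. With the block and without control replicate 2, Ldha was called lower (-0.69, limma adjusted p = 0.0341) where 2.87% of all genes were called lower and 1.82% higher, and Adm was not (-0.50, limma adjusted p = 0.0916). Eno2 reached a limma adjusted p of 0.0574 there. Without both replicate 1 libraries 0 of 36 were called, against 3.17% of all genes tested called higher and 3.75% lower. Adm was highest in replicate 1 of each group, the libraries with the highest mitosis, stromal and leukocyte sums. The part of these markers in the Adm values was not tested.

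Around these genes, the lists of neighbouring pathways gave few calls for GSK4112 in the fit of all 6 libraries without the block. In the list of other glycolytic isoforms and pyruvate genes 1 of 18 tested was called, Pdk3, a pyruvate dehydrogenase kinase. It measured 21.8, 23.5 and 19.0 FPKM in control and 13.1, 11.8 and 11.7 FPKM with GSK4112, a difference of -0.76 ± 0.10 (limma adjusted p = 0.0368, and 0.115 without control replicate 2). With the block 1 gene of that list was called higher and 2 lower. The calls were 1 higher and 1 lower with the block and without control replicate 2, and also without both replicate 1 libraries. In the fit of all 6 libraries without the block, the other lists below were counted too. None of 31 other hypoxia-inducible targets, 13 other HIF regulators, 16 tricarboxylic acid cycle genes or 7 pentose phosphate genes tested was called in that fit. Without both replicate 1 libraries, also with no block, 2 other hypoxia-inducible targets were called higher and 3 lower. That fit called 3.17% of all genes tested higher and 3.75% lower. With the block 2 of the 31 hypoxia-inducible targets were called higher and 2 lower. With the block and without control replicate 2 it was 5 higher and 4 lower of 32, against 1.82% and 2.87% of all genes. Of the 13 HIF regulators 1, Epas1, was called lower in both of these fits, and none of the tricarboxylic acid cycle or pentose phosphate genes was called. Fam162a, a hypoxia-inducible mitochondrial protein, measured 164, 420.4 and 116 FPKM in control and 77.4, 56.4 and 70.3 FPKM with GSK4112 without overlap, with a limma adjusted p of 0.156, and 0.0103 with the block and without control replicate 2. Among 11 tested targets of the stress factor ATF4, Trib3 was called higher, from 2.28, 3.38 and 2.52 FPKM to 9.97, 7.82 and 10.3 FPKM (1.48 ± 0.15, limma adjusted p = 0.0187, and 0.0517 without control replicate 2). With the block 5 of the 11 were called higher and 1 lower. Without both replicate 1 libraries 4 ATF4 targets were called higher and 1 lower.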

How the data were processed

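RNA-seq of 3 control and 3 GSK4112 libraries was deposited as a table of FPKM values made by the authors, 6 sample columns matched by name, per the file headers. The submitters' processing notes name GRCm38. The aligner, the counting program, the annotation and the strandedness were not given in the sources used here. Symbols and coordinates came from GENCODE M21, in which 27098 IDs were found and 53 were not. For Aldoa, which 2 IDs share, the lower-numbered ID was used. No dose is printed, since the labels give it in a unit that is no concentration. FPKM times exon length gave whole fragments within 0.01 for 92.8 to 93.1% of values below 500 fragments and 90.4 to 90.7% of all values.

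Genes with a mean of at least 1 FPKM over the libraries used were tested with limma 3.58.1 (R 4.3.3). The fit used log2(FPKM + 1), a variance trend and 2-sided p-values, Benjamini-Hochberg adjusted over all genes tested with a threshold of 0.05, and no block. The method was tested on simulated data. Errors beside differences are standard errors. Limma-voom on the recovered fragments, other pseudocounts, filters and scalings, weights, the block and left-out libraries were alternatives, of which voom without control replicate 2 was chosen after seeing the data. Same-numbered libraries deviated from their group means together, with correlations of 0.665, 0.326 and 0.213. All exceed 0.1, the limit set for also fitting the replicate number as a block. The main fit used no block, and no label states a pairing. GSK4112 replicate 2 correlated better with control replicate 3 (0.53) and GSK4112 replicate 3 with control replicate 2 (0.357). Calls made with the block therefore rest on an assumed pairing.

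The members, the other lists and the rules were chosen with earlier results of these data known. Values in every library are given for the 12 members with the largest departure of control replicate 2, members called in any of these comparisons, Hif1a, and members whose groups did not overlap with a log2 difference of at least 0.5. Ldhb, the Gapdh copy Gm13394 and the promoters shown were chosen after the values were seen. From each other list, up to 3 called rises, 3 called falls and the 2 largest departures qualified. A gene taken by this rule is not reported here. Of genes outside the 39, those with a mean of at least 5 FPKM, 12 above and 6 below all other libraries in control replicate 2, are named. Copies were sought with BLAST 2.17.0.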

Additional observations from a re-analysis of the deposited data

How the results depend on the processing

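Control replicate 2 was the highest library for 33 to 35 of the 39 genes under the pseudocounts, scalings and left-out libraries tried, and for 27 of 29 with a mean of at least 5 FPKM. The median departure of 1.36 became 1.50 and 1.43 with pseudocounts of 0.1 and 0.5 and 1.42 with TPM scaling. Counts over all genes moved far more. The 50 genes called higher and 76 lower became 9 and 17 with no filter, 470 and 360 with sample weights, 374 and 465 with the replicate block, 383 and 454 without both replicate 1 libraries, 222 and 350 with the block and without control replicate 2, and 6 and 27 with voom and without control replicate 2. Median-of-ratios scaling gave 39 and 105. Leaving out each library in turn gave 0 to 57 higher and 0 to 92 lower: 2 and 6 without control replicate 2, and 0 of each without control replicate 3, GSK4112 replicate 2 or GSK4112 replicate 3. Calls among the 39 were 0 in each of these except 1 lower with the block (Adm) and 1 lower with the block and without control replicate 2 (Ldha); the block changed no other call among them. For members given with values in every library, signs were followed without control replicate 2, and then with voom as well. The sign turned for Bnip3 (0.059 and 0.079), Ndrg1 (0.11 and 0.22), Vegfa (0.42 and 0.45), Car12 (0.086 and 0.16) and Eno2 (0.64 and 0.85). Over each library left out in turn these ranged from -1.93 to 0.059 for Bnip3, -1.31 to 0.11 for Ndrg1, -0.90 to 0.42 for Vegfa, -1.39 to 0.086 for Car12 and -0.45 to 0.64 for Eno2. Among the other members, Gpi1 (0.079), P4ha2 (0.232), Mxi1 (0.241), Kdm3a (0.229), Bnip3l (0.088), Hk1 (0.054) and Egln1 (0.003) also turned without control replicate 2. With the block and without that library Ndrg1 was at 0.11, Vegfa at 0.43 and Eno2 at 0.59, while Bnip3 (-0.004) and Car12 (-0.155) did not turn. The cause was not tested. Control replicate 1 and GSK4112 replicate 1 had the lowest sample weights (0.36 and 0.49).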
